A study of Mus musculus with 9 samples.

Results

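The transporters examined here, 9 genes in all, carry sugars and short-chain fatty acids across the membranes of the intestinal epithelium, and were measured by RNA-seq of intestinal epithelial cells (IECs) from mouse colon. They were taken by symbol, and all 9 were found among the 46095 symbols of the deposited count table. They are the facilitative sugar transporters Slc2a1, Slc2a2 and Slc2a5, the sodium-coupled transporters Slc5a1, Slc5a4a, Slc5a8 and Slc5a9, and the monocarboxylate transporters Slc16a1 and Slc16a3. The study compared IECs that lack Smad4 (Smad4-knockout, or Smad4 Vil-KO, 4 libraries, here called single-knockout) with IECs that lack Smad4 and Setd2 (Smad4 Vil-KO;Setd2 Vil-KO, 5 libraries, here called double-knockout). By label, Smad4 is thus deleted in both groups and they differ in Setd2. The Cre recombinase was driven by the Villin promoter, which acts in the gut epithelium, so other cells carried along by the EDTA isolation keep both genes. All mice had a C57BL/6j background and received AOM/DSS: azoxymethane, a carcinogen, at 10 mg/kg and 8 weeks of age, and then 2% dextran sodium sulphate, which injures the colonic lining. Cells were taken at 10 days. The labels do not say whether each library is a separate mouse, and p-values therefore measure the spread between these samples.

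Glucose and galactose enter an enterocyte from the lumen together with sodium through SGLT1 (Slc5a1), fructose enters through GLUT5 (Slc2a5), and sugars leave towards the blood through GLUT2 (Slc2a2). This absorptive work belongs to the small intestine, whereas colonocytes live largely on butyrate and other short-chain fatty acids made by bacteria. These acids are taken up by SMCT1 (Slc5a8), which is coupled to sodium, and by MCT1 (Slc16a1), which is coupled to protons. GLUT1 (Slc2a1) supplies glucose to many cells, MCT4 (Slc16a3) exports lactate from glycolytic cells, and SGLT4 (Slc5a9) carries mannose and related sugars. SGLT3a (Slc5a4a) is a relative of SGLT1.

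Each library held 12487129 to 17120202 counts in the single-knockout group and 12729533 to 14637157 in the double-knockout group. Values are CPM, counts scaled to library size with TMM factors that correct for library composition, and 1 count was worth 0.0594 to 0.0794 CPM. Setd2 was at 113 ± 9.45 CPM (SD, n = 4) in single-knockout IECs and 66.1 ± 14.7 CPM (SD, n = 5) in double-knockout IECs, with no overlap (log2 fold change -0.77, edgeR adjusted p = 0.00756). Smad4, deleted in both groups, was at 64.2 ± 19.0 and 70.3 ± 34.4 CPM (0.13, edgeR adjusted p = 0.819). Counts over a whole gene do not show the deleted stretch, so that these levels do not check the deletion of Smad4 in either group. Double-knockout replicates 1, 2 and 5 stood apart, with 3857 to 4907 summed counts of 4 Y-linked genes against at most 28 in the other 6 libraries. No single-knockout library carried such counts, so results are also given with a model term for them, and in the 6 libraries lacking them. For the transporters and the named family and pathway genes this is done wherever it ends a call or turns a direction. No such result is given for single marker genes or for genes named for their likeness to a transporter. In both settings the genotype contrast rests on double-knockout replicates 3 and 4 alone, so they are not independent checks. Epithelial markers such as Epcam and Vil1 were abundant in every library (summed 13112 to 14906 CPM and 12373 to 14381 CPM). The 10 leukocyte markers summed to 62.2 to 170.2 CPM in single-knockout and 52.8 to 128 CPM in double-knockout libraries, and the 6 secretory cell markers, led by the mucin Muc2, to 5787 to 8908 CPM and 2159.8 to 3401 CPM. Of these 6, Muc2 was lower (log2 fold change -1.62, edgeR adjusted p = 0.000542) and the enteroendocrine markers Chga (1.87, adjusted p = 0.000405) and Chgb (1.58, adjusted p = 0.00165) were higher, all without overlap. The part of these lists in the values below was not tested.

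Transcripts of MCT1 and of SGLT4 were lower in double-knockout IECs, while GLUT2 and GLUT5, the sugar carriers of the small intestine, had few counts in either group. The low count filter was passed by 6 of the 9 transporters and not by Slc2a2, Slc2a5 and Slc5a4a. Slc5a9 and Slc16a1 were lower (2 of 6) and 0 higher when called by edgeR's quasi-likelihood test at a Benjamini-Hochberg adjusted p under 0.05. By that rule 6.54% of all 14593 genes tested were lower and 6.76% higher, 13.3% together. Other ways of calling gave 1 higher and 3 lower at an unadjusted p under 0.05, 1 and 3 with DESeq2, 0 and 3 with limma-voom. Taking account of Y-linked counts gave 0 higher and 0 lower with the Y-linked term, 0 and 3 in the 6 libraries lacking such counts, where Slc2a5 was also kept by the filter and 7 were tested. The median log2 fold change was -0.39 over the 6 transporters tested and -0.000600 over all genes. The groups overlapped for all 9 transporters, whereas 8.87% of all genes tested were lower and 8.34% higher without overlap.

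**Figure D1:**
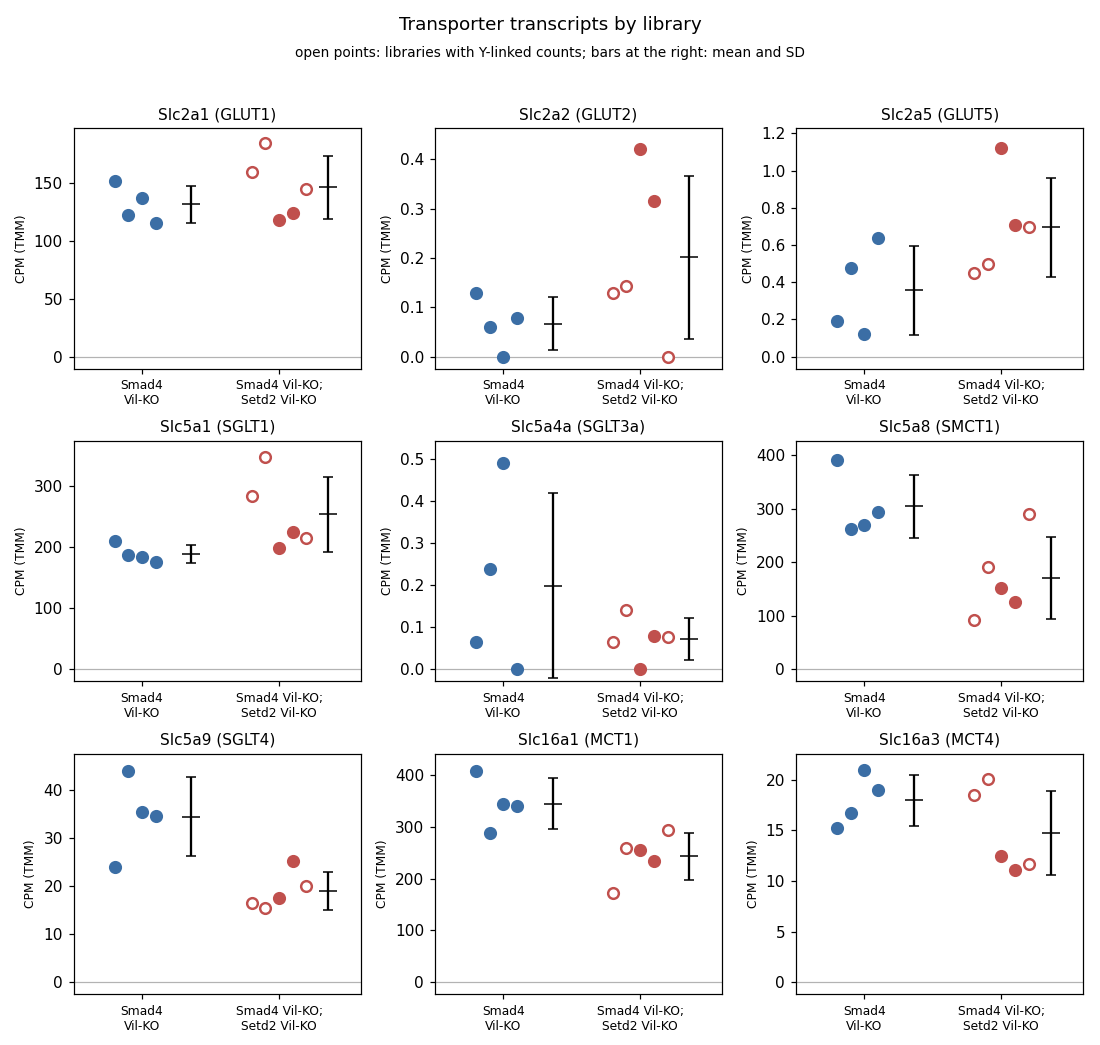
CPM of each transporter in every library of both genotypes, 1 panel per gene with its own linear axis, open points for the 3 libraries with Y-linked counts and bars for mean and SD. Slc5a9, Slc16a1 and Slc5a8 lie lower in double-knockout libraries, each with an overlap, and Slc2a2, Slc2a5 and Slc5a4a do not exceed 1.12 CPM.

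Slc16a1 (MCT1; GRCm38 chromosome 3, 104638668 to 104658462, plus strand) stood at 409, 288, 344 and 339.6 CPM in single-knockout replicates 1 to 4, and at 173, 259, 255, 234 and 294 CPM in double-knockout replicates 1 to 5. Only double-knockout replicate 5 reached the lowest single-knockout library. The means were 345 ± 49.5 CPM (SD, n = 4) in single-knockout IECs and 243 ± 44.9 CPM (SD, n = 5) in double-knockout IECs, a log2 fold change of -0.51 with a standard error of 0.15 (edgeR adjusted p = 0.0449), which is 1.42-fold lower. This call was near the threshold. Leaving out single-knockout replicate 1, 3 or 4 ended it (edgeR adjusted p = 0.131, 0.108 and 0.0871), as did leaving out double-knockout replicate 2, 3 or 4 (0.0611, 0.0666 and 0.0909). The log2 fold change was -0.50 with the Y-linked term (edgeR adjusted p = 0.149) and -0.49 in the 6 libraries lacking those counts (adjusted p = 0.0306). Over the 18 other settings tried it lay between -0.59 and -0.40. Gm43581 and Gm43585 overlap Slc16a1 on the same strand, and how shared reads were counted is not given in the sources used here. The longest Slc16a1 transcript with a RefSeq match shared none of its 50-base stretches with transcripts of other genes.

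Slc5a8 (SMCT1; chromosome 10, 88885992 to 88929515, plus strand) stood at 391, 261, 269.7 and 294 CPM in single-knockout replicates 1 to 4, and at 91.7, 191, 151, 126 and 290.0 CPM in double-knockout replicates 1 to 5. Double-knockout replicates 1 to 4 lay below every single-knockout library, and replicate 5 lay among them. The means were 304 ± 59.6 CPM (SD, n = 4) in single-knockout IECs and 170.0 ± 76.3 CPM (SD, n = 5) in double-knockout IECs, and the log2 fold change of -0.84 (95% interval -1.45 to -0.23) missed the threshold (edgeR adjusted p = 0.0702). Without double-knockout replicate 5 it was -1.11 and passed (edgeR adjusted p = 0.00788), and in the 6 libraries lacking Y-linked counts it was -1.13 (adjusted p = 0.00267). With the Y-linked term it was -1.13 and did not pass (edgeR adjusted p = 0.0829). It also passed with DESeq2 (-0.83, adjusted p = 0.0163), with limma-voom (-0.92, adjusted p = 0.0134) and in edgeR with no filter on low counts (-0.86, adjusted p = 0.0411). All settings put it below 0, between -1.13 and -0.68.

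Slc16a3 (MCT4; chromosome 11, 120948480 to 120960868, plus strand) stood at 15.2, 16.8, 21.0 and 19.0 CPM in single-knockout replicates 1 to 4, and at 18.5, 20.1, 12.5, 11.1 and 11.7 CPM in double-knockout replicates 1 to 5. Double-knockout replicates 3, 4 and 5 lay below every single-knockout library, and replicates 1 and 2 lay among them. The log2 fold change was -0.28 (95% interval -0.71 to 0.15, edgeR adjusted p = 0.353). In the 6 libraries lacking Y-linked counts it was -0.60 and passed (edgeR adjusted p = 0.0296), and with the Y-linked term it was -0.61 and did not (adjusted p = 0.121). In those 6 libraries all 4 red blood cell markers were also called higher, while 0 were called in the 9 libraries. Their sum was 7.07 to 25.8 CPM in single-knockout and 55.4 and 38.0 CPM in double-knockout replicates 3 and 4, and their part in the result was not tested.

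Slc5a8 and Slc16a1 varied alike from library to library. Over the 9 libraries their log2 CPM gave Pearson's r = 0.95 and Spearman's rho = 0.95, and deviations from the genotype means gave r = 0.90. These values are descriptions, since both genes share libraries and scaling. Single-knockout replicate 1 was highest and double-knockout replicate 1 lowest for both. Their count ratio, Slc5a8 over Slc16a1, was 0.783 to 0.956 in single-knockout and 0.531 to 0.985 in double-knockout libraries, and these ranges overlapped. Slc2a1 and Slc5a1 also went together (r = 0.85, and 0.89 within genotypes).

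**Figure D2:**
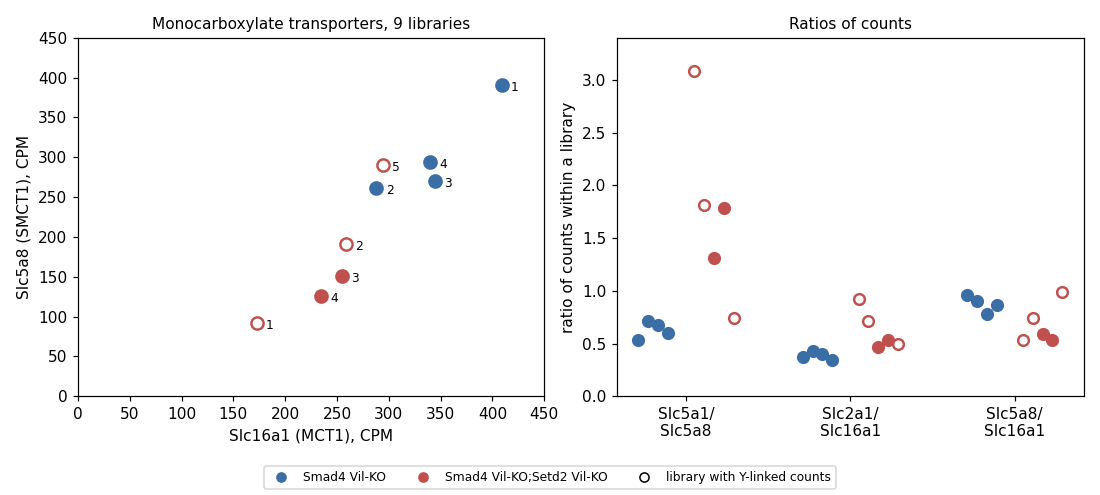
Left, CPM of Slc5a8 and of Slc16a1 plotted against each other in the 9 libraries. Right, ratios of counts within each library, where Slc5a1/Slc5a8 (at most 0.717 in single-knockout and at least 0.740 in double-knockout libraries) and Slc2a1/Slc16a1 (at most 0.426 and at least 0.464) do not overlap and Slc5a8/Slc16a1 does.

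Promoters are shown for Slc5a8 and Slc16a1 because their levels went together, and for Slc2a1 and Slc16a3 because both are textbook targets of the hypoxia-inducible factors. RefSeq sequences (GRCm38.p6) were matched for 8 of the 9 genes, all but Slc5a9, and the 250 bases before the start were searched on both strands. The windows of Slc5a8 (chr10:88885742-88885991, plus strand) and Slc16a1 (chr3:104638414-104638663, plus strand) are written 5′ to 3′, with the GC box GGGCGG or its reverse complement in capitals.
Slc5a8: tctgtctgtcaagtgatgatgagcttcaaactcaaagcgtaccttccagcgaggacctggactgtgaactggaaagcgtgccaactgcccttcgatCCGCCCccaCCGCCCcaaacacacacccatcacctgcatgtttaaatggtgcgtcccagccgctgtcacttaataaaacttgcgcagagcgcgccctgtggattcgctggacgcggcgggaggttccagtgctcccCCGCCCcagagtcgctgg
Slc16a1: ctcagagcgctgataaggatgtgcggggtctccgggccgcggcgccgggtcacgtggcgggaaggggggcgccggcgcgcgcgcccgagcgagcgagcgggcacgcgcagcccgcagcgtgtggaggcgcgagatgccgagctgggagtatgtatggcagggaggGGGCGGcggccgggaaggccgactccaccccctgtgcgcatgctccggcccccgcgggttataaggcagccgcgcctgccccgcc
Slc5a8 held 3 GC boxes, 154, 145 and 18 bases before the start, and Slc16a1 held 1, at 85 bases. A GC box occurs in 32.7% of the 32851 promoter windows of this length, and was also found in Slc2a1, Slc2a5 and Slc16a3. CpG numbered 17 in Slc5a8 and 37 in Slc16a1 against a median of 6 over all windows. Slc16a3 (29), Slc2a5 (15) and Slc2a1 (13) were above that median too, so these features are not particular to Slc5a8 and Slc16a1. The windows of Slc2a1 (chr4:119108495-119108744, plus strand) and Slc16a3 (chr11:120948817-120949066, plus strand) follow, with ACGTG, the core of the hypoxia response element, in capitals.
Slc2a1: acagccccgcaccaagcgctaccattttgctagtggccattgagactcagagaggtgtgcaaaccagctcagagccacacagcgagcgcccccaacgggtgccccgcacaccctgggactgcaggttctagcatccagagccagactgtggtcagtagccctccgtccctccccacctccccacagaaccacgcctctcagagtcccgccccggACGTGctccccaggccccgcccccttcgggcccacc
Slc16a3: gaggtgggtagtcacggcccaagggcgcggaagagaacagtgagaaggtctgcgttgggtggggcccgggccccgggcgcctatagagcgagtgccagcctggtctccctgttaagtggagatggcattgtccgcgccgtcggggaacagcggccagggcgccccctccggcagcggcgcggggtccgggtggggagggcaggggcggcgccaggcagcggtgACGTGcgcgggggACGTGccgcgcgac
This core lies 36 bases before the start of Slc2a1, and 27 and 14 bases before that of Slc16a3, and it occurs in 16.6% of all windows. Distances are from the RefSeq start, which for Slc2a1 and Slc16a3 lies inside the GENCODE interval given with each gene, so that the whole Slc16a3 window falls within that interval. It was also found in Slc5a1 (143 bases) and Slc16a1 (200 bases), there as the palindrome CACGTG, which is an E-box. None of the 8 windows held the HNF1 half-site GTTAAT (6.43% of all windows) or the CDX core TTTATNG (9.81%). The HNF4 core CAAAGT (12.6%) was found in Slc2a2 and the TATA box TATAAA (12.4%) in Slc5a4a. A match is a stretch of letters and not a bound site.

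Among the sodium-coupled sugar transporters Slc5a9 was lower in double-knockout IECs and Slc5a1 did not pass the test. Slc5a9 (SGLT4; chromosome 4, 111875375 to 111902918, minus strand) stood at 23.9, 43.8, 35.3 and 34.5 CPM in single-knockout replicates 1 to 4, and at 16.3, 15.3, 17.5, 25.2 and 20.01 CPM in double-knockout replicates 1 to 5. The overlap came from single-knockout replicate 1 and double-knockout replicate 4 alone. The means were 34.4 ± 8.14 CPM (SD, n = 4) in single-knockout IECs and 18.9 ± 3.96 CPM (SD, n = 5) in double-knockout IECs, a log2 fold change of -0.87 with a standard error of 0.19 (edgeR adjusted p = 0.0140), which is 1.82-fold lower. The call held with each library left out (adjusted p at most 0.0473). It was lost with the Y-linked term (-0.69, edgeR adjusted p = 0.1000) and in the 6 libraries lacking those counts (-0.68, adjusted p = 0.0599).

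Slc5a1 (SGLT1; chromosome 5, 33104219 to 33162870, plus strand) stood at 210.1, 187, 183 and 176 CPM in single-knockout replicates 1 to 4, and at 283, 347, 198, 224 and 215 CPM in double-knockout replicates 1 to 5. Double-knockout replicates 1 and 2 were the highest of the 9 libraries, replicate 3 lay within the single-knockout range, and replicates 4 and 5 lay just above it. The means were 189 ± 14.8 CPM (SD, n = 4) in single-knockout IECs and 253 ± 61.1 CPM (SD, n = 5) in double-knockout IECs, and the log2 fold change was 0.42 (95% interval 0.08 to 0.76, edgeR adjusted p = 0.0946). It passed with DESeq2 (0.43, adjusted p = 0.0476). The value moved to 0.16 with the Y-linked term (edgeR adjusted p = 0.577) and to 0.16 in the 6 libraries lacking those counts (adjusted p = 0.259). The gene interval of 5033423K11Rik overlaps it on the other strand and that of Gm15936 on the same strand. Its longest transcript with a RefSeq match shared none of its 50-base stretches with transcripts of other genes.

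Slc5a4a (SGLT3a; chromosome 10, 76147451 to 76189265, plus strand) had 1, 4, 8 and 0 counts in single-knockout replicates 1 to 4, and 1, 2, 0, 1 and 1 counts in double-knockout replicates 1 to 5. Every double-knockout library was under a floor of 3 counts. Pooled by group, the level was 0.212 CPM (exact Poisson 95% interval 0.113 to 0.363) and 0.0719 CPM (0.0233 to 0.168), and these intervals cover counting error only. The gene was not called in either direction, and its fit without the low count filter is given with those of Slc2a2 and Slc2a5.

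Among the facilitative transporters Slc2a1 alone passed the low count filter. Slc2a1 (GLUT1; chromosome 4, 119108711 to 119137983, plus strand) stood at 151, 123, 137 and 115 CPM in single-knockout replicates 1 to 4, and at 159, 184, 118, 124 and 145 CPM in double-knockout replicates 1 to 5. The groups overlapped over most of their ranges, and double-knockout replicates 1 and 2 were highest. The log2 fold change was 0.15 (95% interval -0.15 to 0.45, edgeR adjusted p = 0.474). Its sign turned with the Y-linked term (-0.12, edgeR adjusted p = 0.609) and in the 6 libraries lacking those counts (-0.12, adjusted p = 0.509). Gm12867 and Gm12868 overlap it on the other strand, and the strand setting is not given. Of the 50-base stretches of its longest transcript with a RefSeq match, 1.74% were shared with transcripts of other genes, mainly Gm12868.

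Slc2a2 (GLUT2; chromosome 3, 28697903 to 28731359, plus strand) had 2, 1, 0 and 1 counts in single-knockout replicates 1 to 4, and 2, 2, 6, 4 and 0 counts in double-knockout replicates 1 to 5. Only double-knockout replicates 3 and 4 exceeded the floor of 3 counts, and 1700112D23Rik overlaps the gene on the other strand. Pooled by group, the level was 0.0653 CPM (exact Poisson 95% interval 0.0178 to 0.167) and 0.201 CPM (0.110 to 0.338). Slc2a5 (GLUT5; chromosome 4, 150119283 to 150144169, plus strand) had 3, 8, 2 and 8 counts in single-knockout replicates 1 to 4, and 7, 7, 16, 9 and 9 counts in double-knockout replicates 1 to 5. The groups overlapped, and the pooled levels were 0.343 CPM (exact Poisson 95% interval 0.212 to 0.524) and 0.690 CPM (0.509 to 0.915). Fitted without the low count filter, the log2 fold changes of Slc2a2, Slc2a5 and Slc5a4a were 1.48, 0.96 and -1.42 (edgeR adjusted p = 0.396, 0.330 and 0.400). In the 6 libraries lacking Y-linked counts Slc2a5 passed the filter and was not called (log2 fold change 1.39, edgeR adjusted p = 0.143).

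Other genes of small intestinal enterocytes were measured in the same libraries. Of 16 markers 14 were tested, and 10 rose and 0 fell in double-knockout IECs by edgeR's test (13 higher and 0 lower at an unadjusted p under 0.05, 11 and 0 with DESeq2, 9 and 0 with limma-voom). Taking account of Y-linked counts gave 8 higher and 0 lower with the Y-linked term, 11 and 0 in the 6 libraries lacking such counts. Cubn, Fabp1 and Sis, all called, did not reach 10 counts in every single-knockout library, so that the filter kept them largely through the group where they are high. Of the other 11 markers tested, 7 rose and 0 fell, a count chosen after the data were seen. Sis, the sucrase-isomaltase that frees glucose and fructose at the brush border, had 7, 125, 41 and 9 counts in single-knockout replicates 1 to 4, and 1495, 1472, 3025, 3537 and 1100 counts in double-knockout replicates 1 to 5. The summed level of all 16 markers was 444 to 523 CPM in single-knockout and 675 to 1757 CPM in double-knockout libraries, lowest of the latter in replicate 5. Mttp, which loads lipid onto chylomicrons, rose from 4.41 ± 1.39 to 102 ± 45.4 CPM (log2 fold change 4.53, edgeR adjusted p = 0.000285), and the ileal bile acid transporter Slc10a2 from 18.5 ± 9.45 to 204 ± 90.5 CPM (3.46, adjusted p = 0.00141). Slc2a2 and Slc2a5 had at most 6 and 16 counts in these double-knockout libraries. Of 10 colonocyte markers, Tmigd1 was higher and 0 were lower (3 higher and 1 lower at an unadjusted p under 0.05, 2 and 0 with DESeq2, 2 and 2 with limma-voom). The Y-linked settings gave 1 higher and 0 lower with the Y-linked term, 1 and 2 in the 6 libraries lacking such counts. Cyp2c55, at 1163 ± 222 and 576 ± 313 CPM, was lower without overlap but was not called (-1.01, edgeR adjusted p = 0.133). The sum of the colonocyte markers was 9991 to 12364 CPM and 6529.9 to 12738 CPM. The part of these markers in the transporter values was not tested, and in bulk samples fewer cells of a type and less RNA per cell cannot be told apart.

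**Figure D3:**
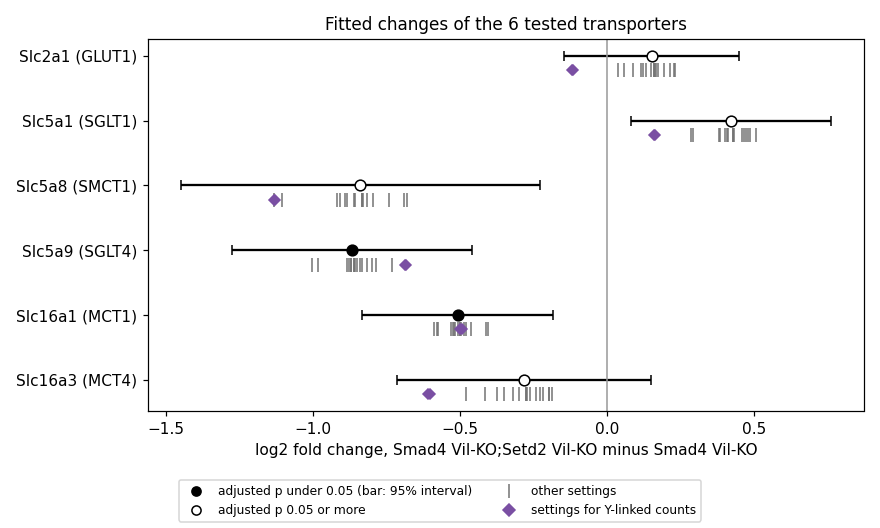
Fitted log2 fold changes of the 6 transporters tested, with 95% intervals and with ticks for the other settings. The settings for Y-linked counts (diamonds) lie at -0.12 for Slc2a1 and at 0.16 for Slc5a1.

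Levels of different genes were compared per length, as CPM per kilobase of the longest transcript with a RefSeq match. In single-knockout IECs Slc16a1 was first (78.0 ± 11.2 CPM per kilobase, SD, n = 4), followed by Slc5a8 (57.0 ± 11.2), Slc5a1 (46.1 ± 3.60) and Slc2a1 (40.4 ± 4.92). This order held within every single-knockout library, although the ranges of neighbours overlapped across libraries. Slc5a9 (7.67 ± 1.82) and Slc16a3 (4.15 ± 0.586) lay well below all of these genes. In double-knockout IECs Slc5a1 had the highest mean (61.7 ± 14.9 CPM per kilobase, SD, n = 5), ahead of Slc16a1 (54.9 ± 10.1), Slc2a1 (44.9 ± 8.26) and Slc5a8 (31.9 ± 14.3), again with overlap between neighbours. The highest values of Slc5a1 came from double-knockout replicates 1 and 2, which carried Y-linked counts. In double-knockout replicates 3 and 5 Slc16a1 was ahead of Slc5a1. Slc5a9 (4.21 ± 0.884) and Slc16a3 (3.41 ± 0.963) came after all of these genes, and the libraries of Slc5a9 and Slc16a3 overlapped. Slc2a5, Slc5a4a and Slc2a2 were the lowest in both groups, at no more than 0.354 CPM per kilobase in any library. With the median length of its 3 matched transcripts Slc16a3 was at 7.54 and 6.19 CPM per kilobase, which put it ahead of Slc5a9 in double-knockout IECs.

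**Figure D4:**
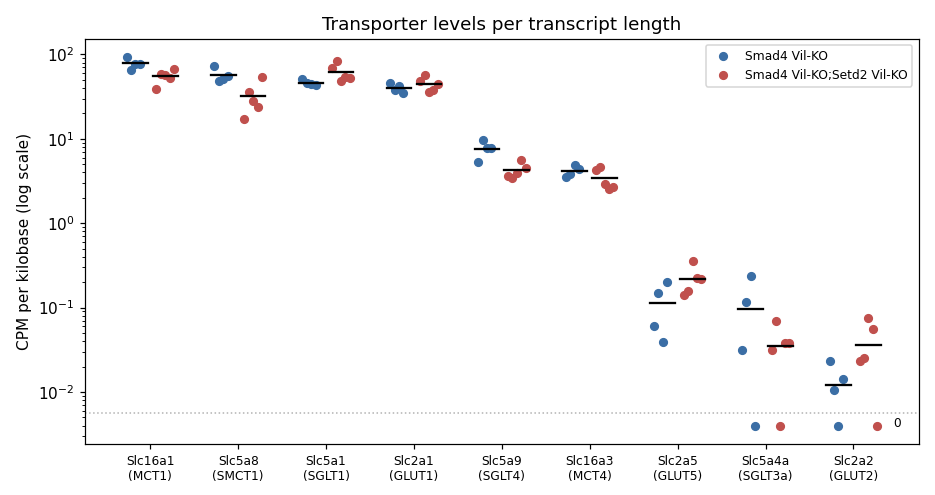
CPM per kilobase of transcript on a log axis for the 9 transporters in every library of both genotypes, with libraries at 0 drawn under the dotted line. Slc16a1, Slc5a8, Slc5a1 and Slc2a1 are at 17.2 or more in every library, and Slc2a5, Slc5a4a and Slc2a2 at 0.354 or less.

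Sugar and fatty acid carriers can also be set against each other within a library, where scaling drops out. The count ratio of Slc5a1 to Slc5a8 was 0.537, 0.717, 0.679 and 0.599 in single-knockout replicates 1 to 4. It was 3.09, 1.81, 1.31, 1.78 and 0.740 in double-knockout replicates 1 to 5, so that the groups did not overlap, although replicate 5 came close. The ratio of Slc2a1 to Slc16a1 was 0.339 to 0.426 and 0.464 to 0.922, also without overlap. Slc16a1 over Slc16a3, at 16.4 to 26.9 and 9.35 to 25.1, overlapped. These ratios were chosen after values were seen and were given no test.

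For both called transporters, the genes most like them over the 9 libraries were found by Pearson's r of log2 CPM among all genes tested. Closest to Slc16a1 were Pdzk1ip1 (r = 0.988 overall and 0.973 for deviations from the genotype means) and the alcohol dehydrogenase Adh1 (r = 0.985 overall and 0.969 for deviations from the genotype means). Pdzk1ip1 fell from 39.1 ± 7.36 to 23.1 ± 7.16 CPM (log2 fold change -0.76, edgeR adjusted p = 0.0435) and Adh1 from 1104 ± 226 to 516 ± 182 CPM (-1.10, adjusted p = 0.0222). Closest to Slc5a9 were the protease gene Bace1 (r = 0.953 overall and 0.868 for deviations from the genotype means) and Taf4, of the general transcription factor TFIID (r = 0.950 overall and 0.828 for deviations from the genotype means). Taf4 fell from 49.3 ± 2.81 to 39.4 ± 2.82 CPM (-0.32, edgeR adjusted p = 0.0268), and Bace1 was at 12.6 ± 0.733 and 10.4 ± 1.03 CPM (-0.27, adjusted p = 0.149). These r are the highest of many and describe likeness only. Whether the calls of Pdzk1ip1, Adh1 and Taf4 hold in the other settings was not examined.

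The other genes of the 3 families were 30 in number, and 15 were tested. Of the 3 other SLC5 genes tested, 2 fell and 0 rose (by other ways of calling, 0 higher and 3 lower at an unadjusted p under 0.05, 0 and 1 with DESeq2, 0 and 2 with limma-voom). Slc5a3, the myo-inositol transporter, fell from 68.8 to 86.6 CPM to 20.4 to 48.7 CPM across libraries, without overlap (log2 fold change -1.16, edgeR adjusted p = 0.0128). That call was lost with the Y-linked term (-0.95, edgeR adjusted p = 0.0922) and held in the 17 other settings, among them the 6 libraries lacking those counts. Slc5a5, the iodide transporter, had 13, 25, 20 and 17 counts in single-knockout and 6, 6, 10, 7 and 10 counts in double-knockout libraries, and the filter kept it largely through the group where it is high, so that its call is no support for a direction of the list. It was at 1.22 ± 0.281 and 0.567 ± 0.169 CPM (-1.11, edgeR adjusted p = 0.0445). Its call was lost in 13 of 17 settings, among them without any of single-knockout replicates 1 to 4 or double-knockout replicates 1 to 4 (edgeR adjusted p 0.0536 to 0.124), with the Y-linked term (0.201) and in the 6 libraries lacking those counts (0.151). Taking account of Y-linked counts, the SLC5 list gave 0 higher and 0 lower with the Y-linked term, 0 and 1 in the 6 libraries lacking such counts. Slc5a4b, the closest relative of Slc5a4a, was not tested, at 2 to 10 counts in single-knockout and 9 to 16 counts in double-knockout libraries, and is named after its values were seen.

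Of the 6 other SLC16 genes tested, 1 rose and 0 fell (2 higher and 0 lower at an unadjusted p under 0.05, 2 and 0 with DESeq2, 1 and 0 with limma-voom). The Y-linked settings gave 1 higher and 0 lower with the Y-linked term, 2 and 0 in the 6 libraries lacking such counts. Slc16a12, a creatine transporter, stood at 22.6, 16.9, 15.6 and 21.4 CPM in single-knockout replicates 1 to 4, and at 62.3, 35.6, 68.2, 88.0 and 51.2 CPM in double-knockout replicates 1 to 5. Every double-knockout library lay above every single-knockout library. The log2 fold change was 1.68 (edgeR adjusted p = 0.00186), and all 18 other settings kept the call, at 1.52 to 2.04. Of the 6 other SLC2 genes tested, 0 rose and 0 fell (1 higher and 2 lower at an unadjusted p under 0.05, 0 and 1 with DESeq2, 0 and 2 with limma-voom). The Y-linked settings gave 0 higher and 1 lower with the Y-linked term, 0 and 2 in the 6 libraries lacking such counts. The median log2 fold change was 0.20 for the other SLC2 and 0.24 for the other SLC16 genes tested. For the 3 SLC5 genes none is given, as it would be the value of Slc5a5.

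**Figure D5:**
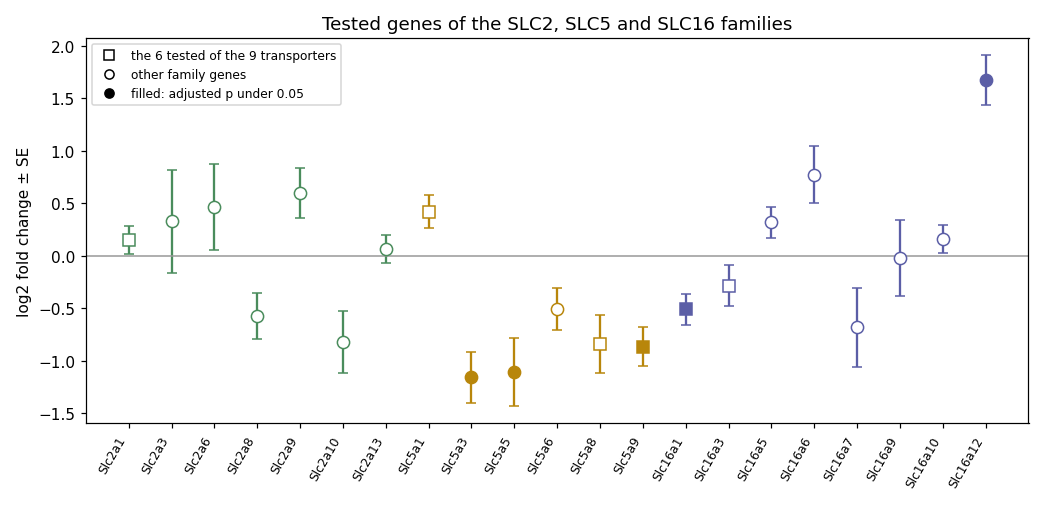
Log2 fold change with its standard error for the tested genes of the SLC2, SLC5 and SLC16 families, squares for the transporters described above, filled for an adjusted p under 0.05. Slc16a12 stands highest at 1.68 and Slc5a3 lowest at -1.16.

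Genes that work beside the transporters were read from fixed lists. Of 9 partners and drivers tested, 0 rose and 0 fell by edgeR's test (0 higher and 1 lower at an unadjusted p under 0.05, 0 and 0 with DESeq2, 0 and 2 with limma-voom). The Y-linked settings gave 0 higher and 2 lower with the Y-linked term, 0 and 3 in the 6 libraries lacking such counts. Bsg, the chaperone that brings MCT1 and MCT4 to the membrane, was at 778 ± 45.6 and 663 ± 126 CPM (log2 fold change -0.23, 95% interval -0.53 to 0.07). Of 8 genes of fructose and glucose handling tested, 0 rose and 0 fell (1 higher and 1 lower at an unadjusted p under 0.05, 1 and 0 with DESeq2, 0 and 1 with limma-voom). There the Y-linked settings gave 1 higher and 0 lower with the Y-linked term, 1 and 1 in the 6 libraries lacking such counts. Khk, the first enzyme of fructose breakdown, had a log2 fold change of -0.17 (95% interval -0.48 to 0.14).

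Of 13 genes that sense or use short-chain fatty acids, 1 rose and 1 fell (1 higher and 3 lower at an unadjusted p under 0.05, 1 and 1 with DESeq2, 1 and 1 with limma-voom). With Y-linked counts considered there were 1 higher and 0 lower with the Y-linked term, 1 and 2 in the 6 libraries lacking such counts. Ffar2, a receptor for short-chain fatty acids, rose from 26.0 ± 2.15 to 35.6 ± 4.42 CPM (log2 fold change 0.46, edgeR adjusted p = 0.0220), with 23.0 to 27.9 CPM and 31.6 to 42.3 CPM in the libraries and no overlap. The call was lost without single-knockout replicate 1, 2 or 3 (edgeR adjusted p 0.0562 to 0.0683). Acss1, the mitochondrial enzyme that activates acetate, fell from 114 ± 15.8 to 77.1 ± 16.4 CPM (-0.56, edgeR adjusted p = 0.0345). Its call was lost without single-knockout replicate 1, 3 or 4, without double-knockout replicate 2, 3 or 4 (edgeR adjusted p 0.0521 to 0.103) and with the Y-linked term (-0.64, adjusted p = 0.0798), and held in the 6 libraries lacking those counts (-0.64, adjusted p = 0.00878). Acsm3, an enzyme that activates butyrate, was at 162 ± 37.4 and 97.6 ± 46.4 CPM (-0.73, edgeR adjusted p = 0.126).

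Of 12 hypoxia targets, 0 rose and 2 fell (0 higher and 3 lower at an unadjusted p under 0.05, 0 and 3 with DESeq2, 0 and 2 with limma-voom). The counts were 0 higher and 1 lower with the Y-linked term, 0 and 1 in the 6 libraries lacking such counts. P4ha1, a collagen prolyl hydroxylase, fell from 22.3 ± 3.17 to 12.8 ± 2.14 CPM (log2 fold change -0.80, edgeR adjusted p = 0.00692) and kept its call in all 18 other settings. Hk2, a hexokinase that traps glucose in the cell, fell from 272 ± 54.7 to 201 ± 9.81 CPM (-0.44, edgeR adjusted p = 0.0341). Its call was lost in 10 of 18 settings, among them without single-knockout replicate 1, 2 or 3 or any of double-knockout replicates 1 to 4 (edgeR adjusted p 0.0562 to 0.0765), with the Y-linked term (-0.40, adjusted p = 0.142) and in the 6 libraries lacking those counts (-0.40, adjusted p = 0.107). Of 12 transcription factors, 1 rose and 2 fell (2 higher and 2 lower at an unadjusted p under 0.05, 1 and 2 with DESeq2, 2 and 2 with limma-voom). They were 2 higher and 0 lower with the Y-linked term, 2 and 4 in the 6 libraries lacking such counts. Gata4, a factor of the proximal small intestine, had 5, 3, 5 and 2 counts in single-knockout and 14, 7, 21, 25 and 12 counts in double-knockout libraries (log2 fold change 2.20, edgeR adjusted p = 0.0144). It passed the low count filter only through the group where it is high, so that its call is no support for a direction of the list. It was not tested without double-knockout replicate 1, 3, 4 or 5, under the replicate block or with at least 10 counts asked of every library. Epas1, a hypoxia-inducible factor, fell from 98.3 ± 6.10 to 63.1 ± 17.02 CPM (-0.64, edgeR adjusted p = 0.0351). Its call was lost without any of single-knockout replicates 1 to 4, without double-knockout replicate 3 or 4 (edgeR adjusted p 0.0582 to 0.0894) and with the Y-linked term (-0.74, adjusted p = 0.0780), and held in the 6 libraries lacking those counts (-0.74, adjusted p = 0.00163).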

How the data were processed

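RNA-seq of colonic IECs was analysed in 4 single-knockout and 5 double-knockout libraries, grouped by the genotype in the labels. The authors deposited whole-number counts per gene symbol, without normalization or pooling. The submitters' processing notes name HISAT2 2.0 and mm10. GENCODE M21 on GRCm38, the same assembly, gave coordinates and lengths. The counting program, annotation and strand setting are not given in the sources used here, and 27 date-like symbols stayed in the tests unnamed. Libraries of a group differed beyond sampling noise (chi-square of at least 10.01 per gene). In edgeR 4.0.16 (R 4.3.3), genes were filtered by filterByExpr, scaled by TMM and compared between genotypes with the quasi-likelihood test, adjusted over all 14593 genes kept. On simulated counts of this comparison, with 200 of 14425 genes changed, 74 of 100 genes changed 2-fold and 98 of 100 changed 4-fold were recovered, with 6 false calls. The simulation gave every gene the same dispersion and held no Y-linked subgroup, so recovery and false calls in the real libraries may differ. Log2 CPM used a prior count of 2. Alternatives were DESeq2 1.42.0, limma-voom (limma 3.58.1), other scalings and filters, each library left out, a replicate block, a term for libraries with over 1000 Y-linked counts, and only the libraries lacking them. Genes to be named were all 9 transporters, Setd2, Smad4, up to 8 called genes of each list, and the 2 genes most like each called transporter. Further genes named as examples were picked after their values were seen, and some listed genes are not reported here. The members and lists were chosen with earlier results of these data known.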

Additional observations from a re-analysis of the deposited data

How the results depend on the processing

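Over 108 refits of the 6 tested transporters (18 settings each), 88 kept their direction and side of the threshold, 10 lost a call, 8 gained one and 2 reversed. The reversals were those of Slc2a1, with the Y-linked term (-0.12) and in the libraries lacking such counts (-0.12), and the cause was not tested. Both of these settings rest on double-knockout replicates 3 and 4 for the genotype contrast. Of the transporters, 2 were called lower and 0 higher. DESeq2 called 1 higher, the Y-linked term left 0 lower, and leaving out each library gave 1 to 3 lower and 0 higher. Of 68 family and pathway genes, 3 were called higher and 7 lower. Higher were 5 with DESeq2, 5 with the Y-linked term, 6 in the libraries lacking such counts and 2 to 5 with each library left out. Lower were 12 with limma-voom, 4 with the Y-linked term, 14 in the libraries lacking such counts and 3 to 12 with each library left out. Of all genes, 986 were higher and 955 lower. These moved to 653 and 632 with the Y-linked term, to 1525 lower with limma-voom and to 1524 lower in the libraries lacking such counts. Leaving out each library gave 455 to 1380 higher and 392 to 1316 lower, the lowest of both without single-knockout replicate 3 and the highest without double-knockout replicate 5.

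Replicate numbers of the labels did not pair the libraries, since deviations of same-numbered libraries had correlations of -0.096, -0.10, 0.02 and 0.088. With the replicate block over the 8 libraries numbered 1 to 4, 807 genes were higher and 774 lower, against 1380 and 1316 without the block in the same libraries. Under the block Slc5a8 was called (-1.13, edgeR adjusted p = 0.0296) and Slc16a1 was not (-0.58, adjusted p = 0.0715). Slc2a2 and Slc5a4a were fitted only without the low count filter, and Slc2a5 also in the libraries lacking Y-linked counts, and none was called. With the median transcript length Slc16a3 moved from 4.15 to 7.54 and from 3.41 to 6.19 CPM per kilobase.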
